A study of Homo sapiens with 6 samples.

Results

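The genes described here are 10 members of the vascular endothelial growth factor (VEGF) family and its antiangiogenic counterparts, given as a list of names, with earlier results of these data known, out of the 37902 genes of the deposited table: the ligands VEGFA, VEGFB, VEGFC and PGF, the receptors FLT1 and KDR, the co-receptors NRP1 and NRP2, and the antiangiogenic factors SERPINF1 and THBS1. They were measured by RNA-seq of polyadenylated RNA in 6 libraries from ARPE-19, an established line of human retinal pigment epithelium (RPE) cells. The 3 WT libraries came from the parental line. The 3 POLDIP2 KO libraries came from the same line after transduction with a lentivirus that delivered SpCas9 with an sgRNA cutting in the POLDIP2 coding sequence, and puromycin selection; the KO line was expanded as a selected population, and no single-cell cloning and no control vector for WT is described in the sources used here. Both lines were kept in regular maintenance medium and collected at day 3, with no other treatment named. The comparison asks which genes differ between the line with POLDIP2 disrupted and its parental line. For these genes it concerns the signals by which RPE cells act on blood vessels. Each genotype is a single line, so loss of POLDIP2 cannot be told apart here from transduction, selection or other differences between the lines.

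The RPE secretes both VEGF ligands, which keep the vessels of the underlying choroid alive, and antiangiogenic proteins, which hold vessel growth back. VEGFA, VEGFB and PGF bind the receptor FLT1, VEGFA also binds KDR, the main signalling receptor of endothelial cells, and VEGFC, the growth factor of lymphatic vessels, binds FLT4 and, after proteolytic processing, KDR. An excess of VEGF activity drives the choroidal neovascularisation of age-related macular degeneration, the disease in which anti-VEGF agents are used.

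Of the 10 members, 7 have a promoter sequence in the RefSeq table used (GRCh38.p14), namely VEGFB, VEGFC, PGF, FLT1, KDR, NRP2 and THBS1. The 250 bases before the transcription start are shown for 4 of them, because these mark the ends of the data: VEGFC was the only member with a call by any method, VEGFB had almost the same mean in both lines, THBS1 was the most abundant member and FLT1 the least. The regions are chr4:176792923-176793172 on the minus strand for VEGFC, chr11:64234334-64234583 on the plus strand for VEGFB, chr15:39580829-39581078 on the plus strand for THBS1 and chr13:28495129-28495378 on the minus strand for FLT1. Each is written 5′ to 3′ on the strand of its gene, ending at the base before the start. Capitals mark matches, on either strand, to GGG followed by any 5 bases and CC, a loose form of the NF-kB site, and to GCGTG, a core of the hypoxia response element.
VEGFC: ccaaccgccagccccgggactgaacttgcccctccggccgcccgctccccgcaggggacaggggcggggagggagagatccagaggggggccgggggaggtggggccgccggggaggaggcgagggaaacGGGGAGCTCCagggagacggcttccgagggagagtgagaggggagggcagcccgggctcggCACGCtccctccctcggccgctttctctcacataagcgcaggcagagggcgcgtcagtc
VEGFB: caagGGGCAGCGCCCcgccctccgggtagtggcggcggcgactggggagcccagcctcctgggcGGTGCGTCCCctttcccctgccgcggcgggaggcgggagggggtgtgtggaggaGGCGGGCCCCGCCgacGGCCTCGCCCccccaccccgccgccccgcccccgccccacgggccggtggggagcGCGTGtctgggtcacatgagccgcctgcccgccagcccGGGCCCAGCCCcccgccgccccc
THBS1: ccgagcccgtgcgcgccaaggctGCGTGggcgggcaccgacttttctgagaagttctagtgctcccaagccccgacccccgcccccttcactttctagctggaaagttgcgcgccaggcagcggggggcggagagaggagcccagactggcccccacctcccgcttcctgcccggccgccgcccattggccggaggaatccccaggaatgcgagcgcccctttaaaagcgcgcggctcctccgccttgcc
FLT1: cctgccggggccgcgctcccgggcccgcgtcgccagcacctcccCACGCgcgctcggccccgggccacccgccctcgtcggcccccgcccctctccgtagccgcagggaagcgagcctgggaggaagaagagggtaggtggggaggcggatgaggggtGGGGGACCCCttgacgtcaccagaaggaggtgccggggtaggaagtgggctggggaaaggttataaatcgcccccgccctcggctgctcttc

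All 7 members held GGGCGG, the letters bound by SP1, which 42.6% of 35116 RefSeq promoters of this length hold. The loose NF-kB form was found in 6 of the 7, all but THBS1, and in 54.4% of all promoters, and its matches can overlap one another and those of the SP1 letters. The core GCGTG was found in 5 of the 7, namely VEGFB, VEGFC, PGF, FLT1 and THBS1, and in 32.2% of all promoters. ACGTG, the other core of the hypoxia response element, was in 0 of the 7 members and in 18.5% of all promoters. A member was counted when any of its windows matched, and PGF has a further window, without GCGTG. The percentages are over single promoters, so the counts and percentages are not fully alike. In VEGFC the single NF-kB match began 120 bases before the start and the GCGTG match 59 bases before it, whereas VEGFB held 8 overlapping or separate NF-kB matches. The bases G and C made up 74.0% of the VEGFC window and 82.8% of the VEGFB window, against a median of 58.0% over all promoters. These are matches of letters and not measured binding sites.

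Values are normalised counts, that is, reads per gene divided by the size factor of the library, at a depth of 31532797 to 45795509 recovered reads. A count of 3 reads, taken as the floor, is worth 2.44 to 3.69 normalised counts. The targeted gene, POLDIP2, had 3919, 4827 and 4798 normalised counts in the 3 WT libraries and 1063, 1248 and 1143 in the KO libraries, which is -1.97 on the log2 scale (limma adjusted p = 0.00961). Of 16 RPE markers, 12 had a mean of at least 10, while RPE65 and TTR were at 0 in every library. Of 10 endothelial markers, 2 had a mean of at least 10 (ROBO4 and VWF), ERG was at 0 throughout and CDH5 did not exceed 1 read. All values describe bulk RNA, in which fewer expressing cells and less RNA per cell cannot be told apart.

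Levels can be compared between members only per length of transcript, and so each normalised count was divided by the length in kilobases of the gene's canonical transcript in GENCODE 44. On this scale THBS1, which encodes thrombospondin 1, stood far above the rest, at 13034 ± 6622 normalised counts per kb in WT (SD, n = 3). It exceeded 98.9% of the 13799 tested genes with a length. VEGFA at 1215 ± 287 and VEGFB at 1076 ± 221 came next and did not differ beyond their spread. VEGFC at 335 ± 31.3 and NRP1 at 311 ± 101 followed and overlapped each other. NRP2 at 157 ± 133 overlapped both NRP1 above it and SERPINF1, at 87.6 ± 25.1, below it. PGF at 24.9 ± 14.5 and KDR at 12.2 ± 13.3 overlapped too, and KDR exceeded 8.52% of the genes. FLT1 was at the floor. In POLDIP2 KO the order of the means was the same from THBS1 down to FLT1, with VEGFC at 562 ± 64.2 and NRP1 at 465 ± 215. The place of VEGFA depends on which transcript is taken: over the union of all its annotated exons it came after VEGFB, at 304 against 986 normalised counts per kb in WT, and KDR then stood above PGF at 11.2 against 7.47.

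**Figure D1:**
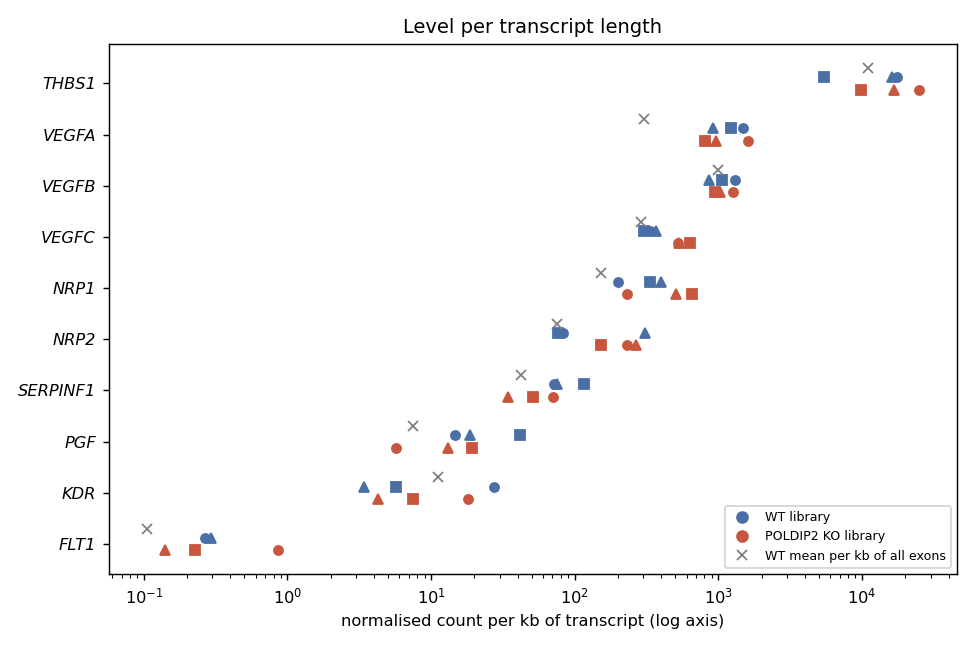
Normalised counts per kb of canonical transcript on a log axis for each member, with 1 point per library, coloured by line. THBS1 lies at 5432 or above in every library and FLT1 below 0.864, and the FLT1 value of 0 in WT replicate 2 cannot be drawn on a log axis.

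The lines were compared with limma on log2(normalised count + 1) over the 14684 genes with a mean of at least 10, which 9 members passed; FLT1 did not. Each of the 9 had a mean of at least 10 in both lines. A gene was called at an adjusted p under 0.05 and a fold change over 1.5. Limma called 0 of the 9 members, where 0.17% of all tested genes were called in either direction, and edgeR on the recovered reads also called 0 (0.116% of all genes). At an unadjusted p under 0.05, limma and edgeR each had 1 member, VEGFC, against 6.48% and 6.52% of all genes. DESeq2 on the recovered reads called 1 member, VEGFC, where it called 1.69% of all genes. The fitted difference was above 0 for 6 members and below 0 for 3, with a median of 0.04 on the log2 scale beside -0.00029 over all tested genes.

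Among the ligands, VEGFA, the main driver of vessel growth, had 5391, 4444 and 3323 normalised counts in WT replicates 1 to 3 and then 5816, 2895 and 3486 in POLDIP2 KO. The lines overlapped, and replicate 1 was the highest in each. The log2 fold change was -0.15 with a 95% interval from -0.82 to 0.53 (limma adjusted p = 0.9998). The interval therefore leaves room for a difference of either sign.

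VEGFB, a ligand of FLT1 linked to survival of existing vessels and to fatty acid uptake, had 2349, 1922 and 1554 in WT and 2298, 1701 and 1845 in POLDIP2 KO. The means of 1942 ± 398 and 1948 ± 312 (SD, n = 3) almost coincided. With a log2 fold change of 0.01 and a 95% interval from -0.43 to 0.45, it had the second narrowest interval of the 9 members.

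VEGFC was the ligand whose lines did not overlap. It lies on chromosome 4 at 176683538 to 176792922 on the minus strand (GRCh38, GENCODE 44). It had 752, 690.3 and 831 normalised counts in WT replicates 1 to 3, against 1176, 1437 and 1197 in POLDIP2 KO. Every KO library was higher than every WT library, which held in this direction for 5.46% of all tested genes. The difference was 0.74 on the log2 scale (SE 0.135, 95% interval 0.42 to 1.06), or 1.67-fold. Its limma adjusted p of 0.159 missed the threshold, as did the edgeR adjusted p of 0.158, while DESeq2 gave an adjusted p of 0.000701. By p it stood at rank 85 of all tested genes. The exact permutation test gave p = 0.1, the smallest value that 3 libraries against 3 allow. Blocking on the replicate number gave an adjusted p of 0.134 in limma and 0.00187 in DESeq2. Leaving out each library in turn kept the difference between 0.65 and 0.81, with limma adjusted p values of 0.217 to 0.431. VEGFC is also a gene that the study named from these same libraries, and so its direction here is not independent evidence.

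PGF, placental growth factor, a ligand of FLT1, was near the lower end of what could be tested, at 25.5, 72.2 and 32.4 normalised counts in WT and 9.84, 33.4 and 22.8 in POLDIP2 KO. The recovered reads were 27, 72 and 31 in WT and 8, 41 and 23 in KO. Each KO library lay below the WT library of the same number, by 1.29, 1.09 and 0.49 on the log2 scale, yet the lines overlapped because WT replicate 1 was lower than KO replicate 2. The log2 fold change of -0.96 had a 95% interval from -2.36 to 0.45 (limma adjusted p = 0.981, and 0.44 blocked by replicate number).

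**Figure D2:**
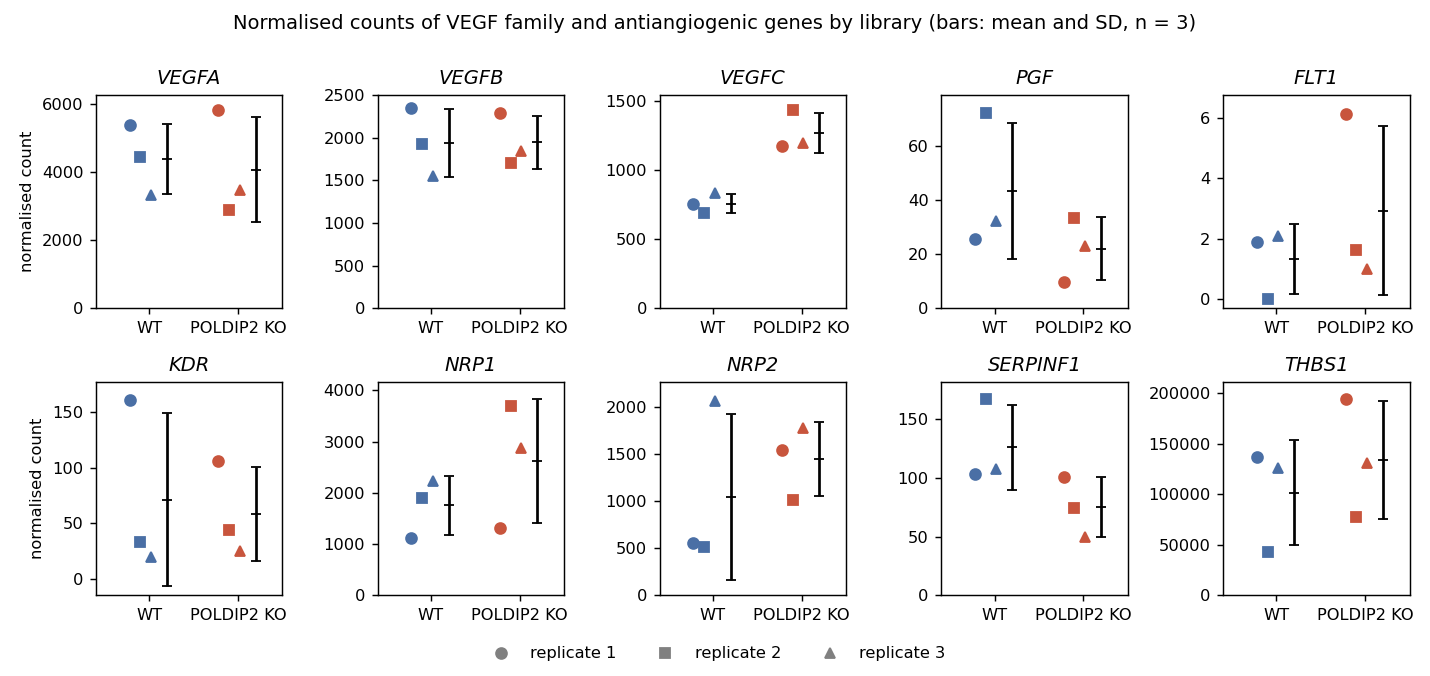
Normalised counts of the 10 members in each library, 1 panel per gene with its own linear axis, with points shaped by replicate number and bars for the mean and SD of each line (n = 3). In the VEGFC panel the KO points lie from 1176 to 1437 and the WT points from 690.3 to 831, in the SERPINF1 panel all KO points lie below the WT points, and in the other panels the lines overlap.

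Of the receptors, FLT1 was close to absent from these libraries, with 2, 0 and 2 recovered reads in WT replicates 1 to 3 and then 5, 2 and 1 in POLDIP2 KO. Only KO replicate 1 exceeded the floor of 3 reads, and at this depth no difference was detectable. KDR had 160.6, 33.1 and 19.8 normalised counts in WT and 105.8, 44 and 24.8 in KO. Replicate 1 was by far the highest in both lines, and the lines overlapped over nearly their whole range. The log2 fold change of 0.04 had a 95% interval from -1.97 to 2.05, the widest of the 9 members tested, and its sign turned to -0.30 in edgeR and -0.29 in DESeq2.

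The co-receptors, which bind VEGF ligands and class 3 semaphorins, were above KDR per kb in every library. NRP1 had 1123, 1897 and 2233 normalised counts in WT and 1308, 3694 and 2873 in POLDIP2 KO. Each KO library was above the WT library of the same number, by 0.22, 0.96 and 0.36 on the log2 scale, but KO replicate 1 lay below WT replicates 2 and 3. The difference of 0.51 had a 95% interval from -0.47 to 1.5 (limma adjusted p = 0.9998, and 0.33 blocked by replicate number). NRP2 had 552, 509.7 and 2063 in WT and 1535, 1008 and 1776 in KO. WT replicate 3 stood apart from the other WT libraries and was the highest of all 6, so that the lines overlapped. The difference of 0.75 had a 95% interval from -0.52 to 2.01 (limma adjusted p = 0.9998). It was 1.40 without WT replicate 3 (limma adjusted p = 0.258), 0.39 without WT replicate 2, 0.45 without WT replicate 1 and 0.47 in both edgeR and DESeq2.

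SERPINF1 encodes pigment epithelium-derived factor, a secreted antiangiogenic and neurotrophic protein of the RPE. It was low in these cells, at 103.0, 167.6 and 107.5 normalised counts in WT replicates 1 to 3 and then 100.9, 74.1 and 49.6 in POLDIP2 KO. The lines did not overlap, with KO lower, which held for 5.44% of all tested genes. The means were 126 ± 36.0 and 74.9 ± 25.6 (SD, n = 3), and the log2 fold change was -0.77 with a 95% interval from -1.58 to 0.05. Neither limma (adjusted p = 0.822) nor DESeq2 (adjusted p = 0.812) called it, and the exact permutation test gave p = 0.1. By replicate number the differences were -0.03, -1.17 and -1.10 on the log2 scale. Leaving out each library in turn gave differences from -1.01 to -0.50, the smallest without KO replicate 3. Without replicate 1 of both lines, an alternative added after seeing the data, the difference was -1.13 (limma adjusted p = 0.63).

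THBS1 encodes a matrix glycoprotein that inhibits endothelial cells through CD36 and CD47 and activates latent TGF-beta. It had 136720, 42311 and 125526 normalised counts in WT and 193628, 76826 and 130287 in POLDIP2 KO. It took 0.365%, 0.115% and 0.339% of all normalised counts in WT and 0.499%, 0.206% and 0.343% in KO, ranking between 8 and 70 among all genes. Replicate 2 was the lowest library in each line, and the lines overlapped. The difference of 0.47 had a 95% interval from -0.76 to 1.70 (limma adjusted p = 0.9998, and 0.356 blocked by replicate number). It was -0.07 without WT replicate 2 and 0.15 without KO replicate 1, and reached 0.82 without KO replicate 2.

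**Figure D3:**
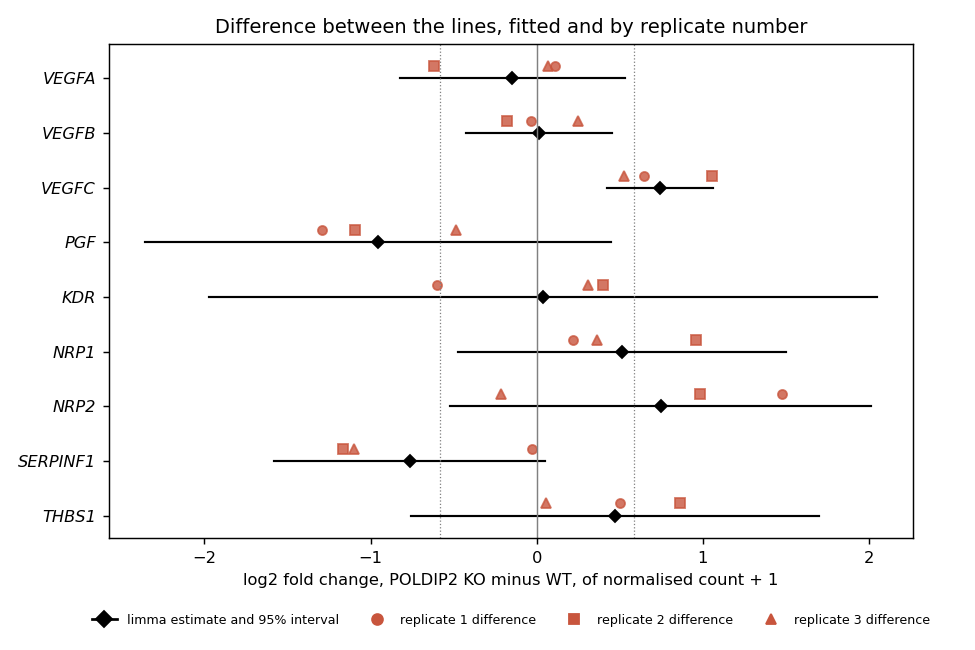
Log2 fold change of POLDIP2 KO over WT for the 9 members tested, with the limma estimate and its 95% interval in black, the difference of each same-numbered pair as a symbol and dotted lines at a fold change of 1.5 in each direction. The interval of VEGFC, 0.42 to 1.06, is the only one that does not contain 0.

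Set against the WT library of the same replicate number, all 3 KO libraries were higher for VEGFC, NRP1 and THBS1, a pattern shown by 17.0% of all tested genes, and all 3 were lower for PGF and SERPINF1, against 15.7% of all genes. Blocking on the replicate number, limma called 0 members (0.204% of all genes), and 4 of the 9 had an unadjusted p under 0.05, namely VEGFC, NRP1, PGF and THBS1, where 11.1% of all genes did. DESeq2 with the block called VEGFC alone among the members, where it called 2.67% of all genes.

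Replicate 1 was the highest library of both lines for 4 of the 9 members, VEGFA, VEGFB, KDR and THBS1, as it was for 22.1% of all tested genes, and the lowest for PGF and NRP1, as for 20.7%. For KDR, replicate 1 exceeded the mean of replicates 2 and 3 by 2.60 on the log2 scale in WT and by 1.65 in KO. For NRP1 it fell short of that mean, at -0.87 in WT and -1.32 in KO. VEGFC moved least with the number, at -0.01 and -0.16. The summed level of 8 fibroblast markers was also highest in replicate 1, at 6831 in WT and 14374 in KO against 2110 to 4865 in the other libraries. Most of it came from COL1A1 and PDGFRB, at 2147 and 4623 in WT replicate 1 and 6956 and 6572 in KO replicate 1. Of these 8 markers 6 had a mean of at least 10, but COL1A2 and COL3A1 only through KO replicate 1, at 614 and 124. In the other libraries these 2 did not exceed 9.45 and 17.9. Replicate 1 was the highest library of both lines for 4, COL1A1, COL1A2, PDGFRB and LUM. PDGFRA was highest in replicate 2 of both lines, and THY1 was lowest in replicate 1 among the WT libraries. LUM was at 0 in 4 of the 6 libraries. The summed level of the 16 RPE markers was highest in replicate 1 as well, at 92339 in WT and 100311 in KO, against 72635 to 83934 in the other libraries. Most of this sum came from the keratins KRT8 and KRT18, at 43870 and 33201 in WT replicate 1. Replicate 1 was the highest library of both lines for only 3 of the 16 markers, while RLBP1, BEST1 and RDH5 were lowest in replicate 1 of both lines. The summed level of the 10 endothelial markers was 244 in WT replicate 1 and 237 in KO replicate 1, not the highest library of either line. ROBO4 alone supplied 201 and 185 of these sums, so they describe mainly that gene. The part of these transcripts in the members' values was not tested.

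Ratios between members were taken within a library on normalised counts not divided by length. Their size is therefore no balance of transcript numbers, and only their difference between the lines is read here. VEGFA to SERPINF1 and VEGFA to THBS1 set a proangiogenic against an antiangiogenic gene, while VEGFC to VEGFA compares ligands. The ratio of VEGFA to SERPINF1 was 52.4, 26.5 and 30.9 in WT and 57.7, 39.1 and 70.2 in POLDIP2 KO. It was higher in KO in each same-numbered pair, but the lines overlapped, and the difference of 0.62 on the log2 scale gave p = 0.2 in a two-sided exact permutation test. The ratio of VEGFC to VEGFA was 0.139, 0.155 and 0.250 in WT and 0.202, 0.496 and 0.343 in KO. This difference of 0.89 on the log2 scale also gave an exact permutation p of 0.2. For VEGFA to THBS1 the log2 difference was -0.62 with an exact permutation p of 0.5. Leaving out each library in turn, the differences ranged from 0.42 to 0.91 for VEGFA to SERPINF1, from 0.58 to 1.23 for VEGFC to VEGFA, and from -1.05, without WT replicate 3, to -0.05, without WT replicate 2, for VEGFA to THBS1. These 3 tests cannot fall below 0.1.

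**Figure D4:**
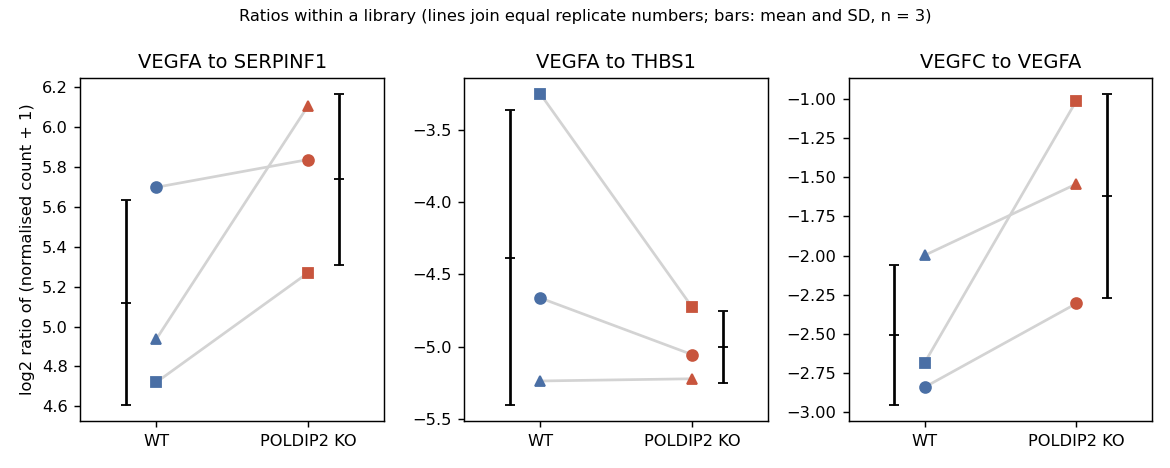
Log2 ratio of the normalised counts of 2 members, each plus 1, in each library, with grey lines joining equal replicate numbers, bars for the mean and SD of each line (n = 3) and 1 panel for each of the 3 ratios. In each panel the points of the WT and KO lines overlap, and the differences of the means are 0.62, -0.62 and 0.89.

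The wider pathway was described by 7 lists, in which 0 genes were called by limma or edgeR. Over the 112 different genes tested in them, 11 were higher and 4 lower at an unadjusted p under 0.05 in limma, a threshold that 6.48% of all tested genes passed, and DESeq2 called 2 genes, CXCL8 and PDGFD, where it called 1.69% of all genes. Blocked by replicate number, limma called 0 genes of the lists too. Of the other VEGF and angiopoietin ligands and receptors, 3 of 8 were tested, 2 of them above 0, with a median log2 fold change of 0.38. ANGPTL4 had 32.1, 201 and 87.7 normalised counts in WT and 41.8, 324 and 92.3 in POLDIP2 KO, with overlap (limma adjusted p = 0.9998). VEGFD, ANGPT2 and TEK did not exceed 4.96 normalised counts in any library, and TIE1 reached 11.1. FLT4, the main receptor of VEGFC, had 52.9, 53.2 and 44.9 in WT and 25.8, 12.2 and 23.8 in POLDIP2 KO, with no overlap and a difference of -1.31 on the log2 scale (limma adjusted p = 0.478).

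Among genes that process or retain VEGFC and VEGFA, 4 of 13 tested had a difference above 0 and the median was -0.15, with 1 gene at an unadjusted p under 0.05. HSPG2, which encodes the heparan sulphate proteoglycan perlecan, had 25972, 18665 and 24304 in WT and 48267, 32383 and 31801 in KO. The lines did not overlap, and the log2 difference was 0.69 (limma adjusted p = 0.477, DESeq2 adjusted p = 0.0599). Blocked by replicate number, the adjusted p was 0.109 in limma and 1.19e-05 in DESeq2. CCBE1 and ADAMTS3, which act together in the cleavage of VEGFC, differed by -0.31 and -0.33 on the log2 scale (limma adjusted p = 0.955 and 0.9998). Of 31 tested genes of VEGF receptor signalling, 20 were above 0, with a median of 0.02 and 2 at an unadjusted p under 0.05, and PIK3R1, a regulatory subunit of PI3-kinase, was at 0.45 (limma adjusted p = 0.579).

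Of 17 tested antiangiogenic genes outside the members, 10 were above 0 with a median of 0.03, and 3 had an unadjusted p under 0.05. ADAMTS1, a metalloprotease that inhibits VEGF signalling, had 2976, 3302 and 3162 in WT and 1453, 2040 and 507 in POLDIP2 KO, a difference of -1.46 on the log2 scale (limma adjusted p = 0.531). The semaphorins SEMA3F and SEMA3A, ligands of the neuropilins, differed by 1.31 and 1.42 on the log2 scale (limma adjusted p = 0.586 and 0.771, DESeq2 adjusted p = 0.126 and 0.283). Blocked by replicate number, the adjusted p values were 0.114 and 0.0754 in limma and 0.000637 and 1.26e-05 in DESeq2. Among thrombospondin relatives and receptors, 8 of 10 were above 0 with a median of 0.27, and 1 had an unadjusted p under 0.05. CD47, a receptor of THBS1, had 2241, 2238 and 2432 in WT and 3021, 3087 and 3153 in KO, a narrow spread with no overlap. Its log2 fold change of 0.42 lies under the fold change limit, at a limma adjusted p of 0.229 and a DESeq2 adjusted p of 0.00441. CD36, another receptor of THBS1, was at -0.46 on the log2 scale.

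Among 18 tested proangiogenic growth factors, 11 were above 0 with a median of 0.12, and 5 had an unadjusted p under 0.05, 3 of them higher and 2 lower. CXCL8, the chemokine interleukin 8, had 213, 1293 and 1323 in WT and 6279, 7717 and 5404 in POLDIP2 KO, a difference of 3.16 on the log2 scale (limma adjusted p = 0.218, DESeq2 adjusted p = 0.0135). Without WT replicate 1, limma called it at an adjusted p of 0.0338 and a log2 fold change of 2.29. PDGFD, a platelet-derived growth factor, had 214, 199 and 189 in WT and 420, 315 and 435 in KO, a difference of 0.94 on the log2 scale (limma adjusted p = 0.186, DESeq2 adjusted p = 0.00224). MDK, the heparin-binding growth factor midkine, went the other way without overlap, with 61.4, 146 and 114 in WT and 29.5, 31.7 and 52.6 in KO, and a difference of -1.43 on the log2 scale (limma adjusted p = 0.429). IL6, an inflammatory cytokine, had 57.6, 126 and 55.3 in WT and 385, 198 and 127 in KO, and differed by 1.52 (limma adjusted p = 0.542). Of 21 tested genes of the hypoxia response and its control, 17 were above 0, with a median of 0.18 over the list. The 17 include genes that control the response, namely HIF1A, EPAS1, ARNT, VHL, EGLN1, EGLN3 and HIF1AN. The 4 below 0 were the response genes ANKRD37, BNIP3, SLC2A1 and PFKFB4. An unadjusted limma p under 0.05 was found for 2 genes of this list, EPAS1 and VHL. EPAS1, which encodes HIF-2 alpha, was at 0.82 (limma adjusted p = 0.664, DESeq2 adjusted p = 0.302), and blocked by replicate number the adjusted p was 0.172 in limma and 0.000544 in DESeq2. VHL, which targets it for degradation, was at 0.27 (limma adjusted p = 0.565). VLDLR, a lipoprotein receptor, had 105, 0 and 0 in WT and 137, 44 and 50.6 in KO, so that its fitted difference of 3.85 depends on the value added before taking logs. On the recovered reads this difference was 1.13 in edgeR, 1.14 in DESeq2 and 6.38 in DESeq2 with the replicate block. CA9 had 4741, 2309 and 2978 in WT and 8234, 3301 and 4486 in KO, with overlap. Its log2 difference was 0.63 (limma adjusted p = 0.977, DESeq2 adjusted p = 0.803). Blocked by replicate number, the adjusted p of CA9 was 0.0877 in limma and 2.83e-06 in DESeq2. Other named genes of the lists did not pass in DESeq2 with this block. Among them were FLT4, ADAMTS1, MDK and IL6, at DESeq2 adjusted p values of 0.455, 0.183, 0.0968 and 0.0595. All blocked values take the replicate numbers to pair the libraries, which is not shown for replicates 2 and 3.

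**Figure D5:**
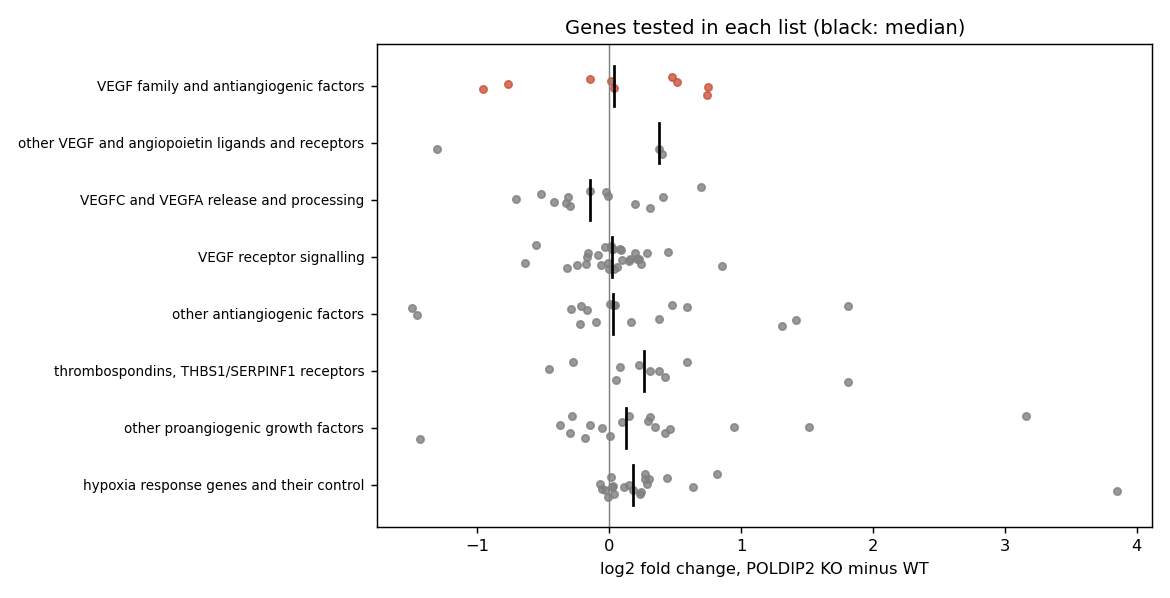
Log2 fold change of POLDIP2 KO over WT of every tested gene of the 7 lists and of the 9 members, 1 row per list, with a bar at the median of each. The medians lie between -0.15 and 0.38, and CXCL8, at 3.16, and VLDLR, at 3.85 with 2 WT libraries listed at 0, are the points farthest to the right.

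The genes whose log2 profile over the 6 libraries was most like that of VEGFC were DIPK1A, RAET1E and NECTIN3, with Pearson r of 0.992, 0.991 and 0.989. For VEGFA they were KRT80, WDR13 and CTTNBP2NL, at 0.997, 0.995 and 0.994. All genes of a library share its size factor, and these values describe 6 libraries in 2 lines and were picked as the highest of all tested genes.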

How the data were processed

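RNA-seq of 3 WT and 3 POLDIP2 KO ARPE-19 libraries was analysed from the deposited table of normalised counts. The deposited signal is the authors' gene count over a size factor, obtained with Salmon 1.8, tximport and DESeq2 1.34.0 on GRCh38; the annotation release is not given in the sources used here. Symbols for 34152 of 37902 genes, and lengths, came from GENCODE 44. All columns were used. Reads were recovered as multiples of the smallest positive value of a library (whole within 0.001); for WT replicate 2 and POLDIP2 KO replicate 3 this step is near 1 and whole values say little. Labels call the libraries biological replicates, and p values cover the spread between them.

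Limma 3.58.1 in R 4.3.3 (lmFit, eBayes with trend) was run on log2(normalised count + 1) where the mean over libraries reached 10, with Benjamini-Hochberg adjustment over all tested genes; adding 1 understates the change of low genes. EdgeR 4.0.16 (quasi-likelihood) and DESeq2 1.42.0 were run on the recovered reads. Exact permutation tests were two-sided. Scripts were tested on simulated data. The other alternatives were a pseudocount of 0.5 or 5, a minimum mean of 50 or none, quantile normalisation, libraries recentred on their median, a replicate block and leaving out libraries. The members and lists were chosen with earlier results of these data known. Named list genes are the up to 4 with the smallest p in each list, and others were chosen after their values were seen. Deviations from the line means correlated at 0.315, 0.137 and 0.129 between same-numbered libraries, each above the limit of 0.1, and at -0.259 to 0.147 between others. KO replicate 2 with WT replicate 3, at 0.147, passed the limit too, so the check sets apart replicate 1 alone. The numbers were taken to pair the libraries in the blocked fits, but pairing of replicates 2 and 3 is not shown. Imaging, qPCR and protein data, and genes not reported here, were left out.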

Additional observations from a re-analysis of the deposited data

How the results depend on the processing

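VEGFC kept its direction under every alternative run, and passed both thresholds only in DESeq2, which gave 1 called member with and without the replicate block. NRP1, NRP2, PGF and SERPINF1 kept their signs under every alternative run, without a call, but not their size. KDR turned to -0.30 in edgeR and -0.29 in DESeq2. Leaving out each library in turn, the log2 fold change ranged from 0.20 to 0.95 for NRP1, 0.39 to 1.40 for NRP2, -1.32 to -0.49 for PGF, -1.01 to -0.50 for SERPINF1, -0.44 to 0.066 for VEGFA, -0.14 to 0.16 for VEGFB, -0.57 to 0.90 for KDR, -0.071 to 0.82 for THBS1 and -0.41 to 1.05 for ANGPTL4. Over all tested genes, limma called 12 higher and 13 lower, and 17 and 13 with the replicate block. Other counts of higher genes were 111 in DESeq2, 184 in DESeq2 with the replicate block, 2 without replicate 1 of both lines and 0 to 3 without single libraries. Those of lower genes were 6 at a mean of at least 50, 8 in edgeR, 137 in DESeq2, 208 in DESeq2 with the replicate block, 2 without replicate 1 of both lines and 0 to 2 without single libraries. In the lists, limma called 0 to 1 proangiogenic gene without single libraries. DESeq2 called 2 proangiogenic genes with and without the block. With the block it also called 1 gene of release and processing, 3 antiangiogenic genes and 2 genes of the hypoxia list. Of all tested genes, DESeq2 called 1.69% without the block and 2.67% with it. POLDIP2 had limma adjusted p values of 0.0202 to 0.0886 without single libraries. The replicate block changed no call of a member in limma, and the cause of the differences between tools was not tested. With 3 libraries a line, the 95% intervals of 8 of the 9 members tested contain 0 in the fit without the block, and only that of VEGFB lies within a 1.5-fold difference in both directions. With the replicate block, 4 of the 9, VEGFC, NRP1, PGF and THBS1, had an unadjusted p under 0.05, so that 5 intervals contain 0. For FLT1 depth is the limit.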
